A study of Mus musculus with 27 samples.

Results

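The enzymes of oxidative phosphorylation stand in the inner mitochondrial membrane. Complexes I and II pass electrons from NADH and succinate to ubiquinone, complex III passes them on to cytochrome c, complex IV (cytochrome c oxidase) reduces oxygen, and complex V (ATP synthase) makes ATP from the proton gradient. Most subunits are encoded in the nucleus, and several exist as tissue-specific isoforms, above all in complex IV. The genes described here are the nuclear-encoded subunits whose array symbols begin with Ndufa, Ndufb, Ndufc, Ndufs, Ndufv, Sdha to Sdhd, Uqcr, Cox4 to Cox8 or Atp5, without the Ndufaf assembly factors and pseudogenes. They numbered 81 of the 18820 genes with a probe set of their own, of which 34 belonged to complex I, 4 to complex II, 7 to complex III, 19 to complex IV and 17 to complex V. Ndufa4 and Ndufa4l2 were placed with complex IV.

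Livers were taken from 27 male C57BL/6J mice at 12 months of age and hybridised to 1 array each. From 9 weeks of age the mice were fed 1 of 4 diets: 30% calorie restriction (CR, n = 6), an intermittent diet that alternated weekly between 40% calorie restriction and free access to a medium fat food (INT, n = 7), that medium fat food with 25% of its energy as fat, free access (MF, n = 7), or the control food with free access (C, n = 7). INT-fed mice were killed in a week of free access to the medium fat food. All 27 mice, those of the C group included, received a gavage of 0.5% carboxymethylcellulose between a fast of 4 h and a fast of 6 h before sacrifice. CR-fed mice were given a portion each day at a set hour, whereas the other mice had free access to food before the fasts. Time since the last meal can thus differ between CR and the other diets, and its part was not tested. The values are log2 intensities, and a gene was tested when its intensity passed 20 on at least 5 arrays, which 13603 genes did. Of the subunit genes 79 passed. The other two were complex IV isoforms of the testis: Cox7b2 lay between 2.12 and 2.85 on the log2 scale over all mice, and Cox8c between 3.74 and 4.34. Array medians ranged between 5.21 and 5.27, and any pair of arrays correlated at 0.982 to 0.992 over probe sets.

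The hepatocyte markers were high in every liver, and their summed intensity was 55455 to 57248 in CR-fed mice, against 46630 to 53675 in INT-, 44920 to 51812 in MF- and 48081 to 54241 in C-fed mice. Of 6 hepatocyte markers 2, Tat and Cps1, were called higher in CR- than in C-, MF- and INT-fed mice, and none lower. The summed markers of macrophages and Kupffer cells were 3370 to 4787 in CR-fed mice, 2343 to 3213 in INT-, 2573 to 4013 in MF- and 2964 to 4691 in C-fed mice, and 2, 2 and 5 of these 8 markers were higher in CR- than in C-, MF- and INT-fed mice, none lower. Of 4 cholangiocyte markers 2, 1 and 1 were higher and none lower (sums of 190 to 247 in CR-, 168 to 224 in INT-, 160 to 226 in MF- and 158 to 201 in C-fed mice). Of 6 sinusoidal endothelial markers 2, 2 and 1 were higher and 0, 1 and 0 lower (sums of 4335 to 4889 in CR-, 4082 to 4840 in INT-, 4009 to 5095 in MF- and 4128 to 4646 in C-fed mice). Of 2 erythroid markers with values, Slc4a1 was higher and Alas2 lower in each of these comparisons. Their summed intensity was 248 to 363 in CR-, 716 to 887 in INT-, 436 to 883 in MF- and 615 to 964 in C-fed mice. Of 4 adipocyte markers tested none was higher, and 1, 1 and 0 were lower. The lower one was Cidec (-3.03 ± 0.63 from C and -3.44 ± 0.63 from MF). Of all genes tested, 8.46%, 8.57% and 6.62% were called higher and 9.05%, 11.2% and 8.37% lower in these 3 comparisons. The part of the cell type markers in the differences described here was not tested. In bulk liver RNA fewer cells of a type and less RNA per cell cannot be told apart.

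Calorie restriction went with slightly higher subunit transcripts, and with a single large change, in the complex IV isoform Cox7a1. A gene was called at an adjusted p under 0.05 (limma, Benjamini-Hochberg over all genes tested). In CR- against C-fed mice 7 of 79 subunit genes were called higher (8.86%) and 1 lower (1.27%), where all genes tested gave 8.46% higher and 9.05% lower. The share called higher was thus near that of all genes, and the share called lower was below it. The median log2 difference of the subunit genes was 0.04, against 0.004 for all genes, and 56 of 79 lay above 0. In CR- against MF-fed mice 14 were higher (17.7%) and 1 lower, against 8.57% and 11.2% of all genes. The median was 0.07, against -0.002 for all genes, and 68 lay above 0. In CR- against INT-fed mice 13 were higher (16.5%) and 0 lower, against 6.62% and 8.37% of all genes, with a median of 0.08, against 0.001, and 71 above 0. The 0 lower calls came with 1 subunit gene lower at an unadjusted p under 0.05, and one-way analysis of variance with Tukey's test, adjusted over genes here, called 7 subunit genes, all higher. These 3 comparisons share the CR-fed mice, so they do not stand apart as separate evidence.

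No subunit gene was called between INT-, MF- and C-fed mice. In each of INT against C, MF against C and INT against MF, limma called 0 of 79 subunit genes and 0% of all genes in either direction, and Tukey's test called 0 subunit genes. At an unadjusted p under 0.05 there were 7 subunit genes in INT against C, 2 in MF against C and 1 in INT against MF, against 922, 464 and 1479 of all genes. The median differences of the subunit genes were -0.04, -0.03 and -0.004, against 0.005, 0.009 and -0.003 for all genes. Of the 79 subunit genes 16, 17 and 35 lay above 0 (20.3%, 21.5% and 44.3%), against 52.3%, 54.6% and 49.0% of all genes. Most subunit genes thus lay slightly below C in both INT- and MF-fed mice, though none was called. In INT- against C-fed mice the smallest p belonged to Ndufc1, an accessory subunit of complex I, with a log2 difference of -0.13 ± 0.04 (SE, adjusted p = 0.552). In MF- against C-fed mice it belonged to Ndufb8, also an accessory subunit of complex I, with -0.14 ± 0.05 (adjusted p = 1.00). In INT- against MF-fed mice it was again Ndufc1, with -0.11 ± 0.04 (adjusted p = 0.402).

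**Figure D1:**
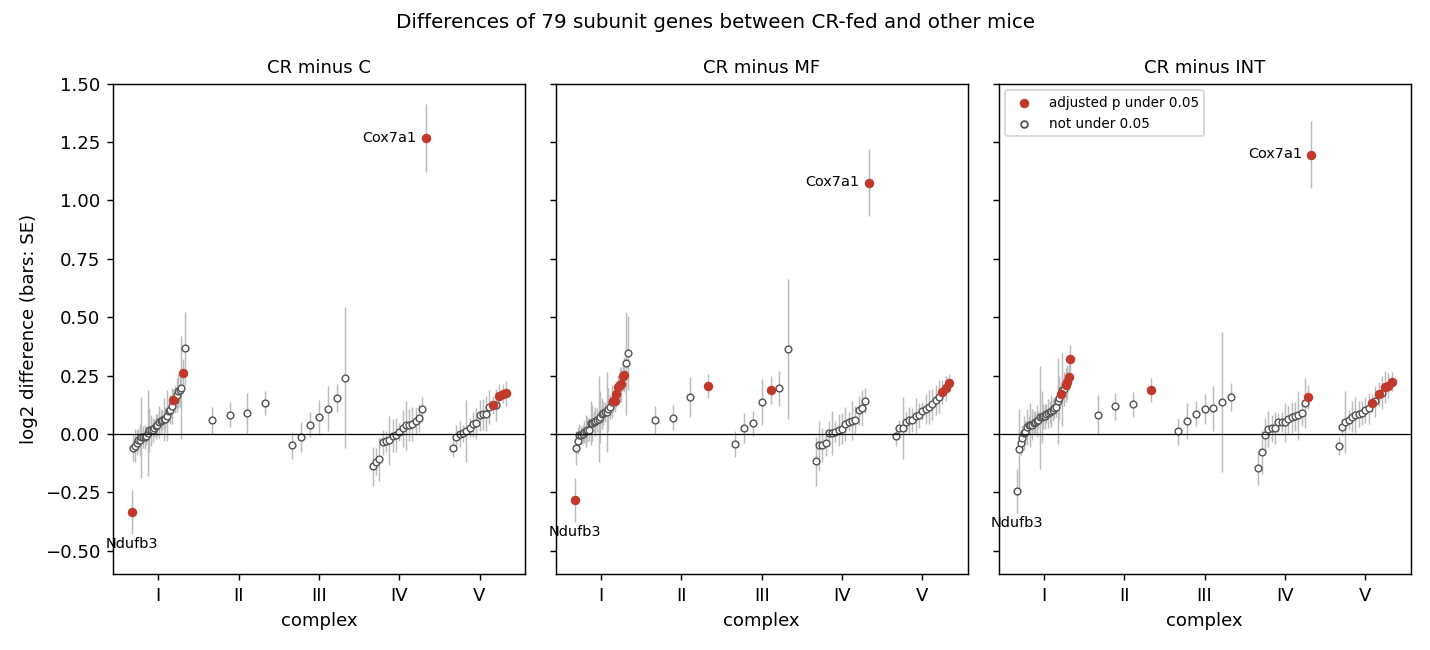
Log2 difference (y axis, with SE) of each of 79 subunit genes by complex (x axis), for CR minus C, CR minus MF and CR minus INT. Filled red points passed an adjusted p of 0.05 and open points did not. Cox7a1 lies at 1.27, 1.08 and 1.20, Ndufb3 is the lowest point of each panel, and of the other genes none lies above 0.37.

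Averaged over genes, the difference was small in every complex. The mean log2 intensity over the 79 genes was 9.93 ± 0.05 in CR-, 9.83 ± 0.04 in INT-, 9.83 ± 0.06 in MF- and 9.87 ± 0.06 in C-fed mice (SD over mice). The lowest, median and highest mouse were at 9.88, 9.92 and 10.02 on CR, at 9.78, 9.83 and 9.88 on INT, at 9.71, 9.86 and 9.89 on MF and at 9.78, 9.87 and 9.98 on C, so that CR-fed mice overlapped those of each other diet. Without Cox7a1 the means were 9.96, 9.87, 9.87 and 9.91 in CR-, INT-, MF- and C-fed mice. Complex II averaged 10.86 ± 0.07 in CR-fed mice, against 10.73 ± 0.04 in INT-, 10.74 ± 0.07 in MF- and 10.77 ± 0.04 in C-fed mice. Complex IV averaged 8.79 ± 0.03 in CR-fed mice, against 8.68 ± 0.04, 8.70 ± 0.04 and 8.72 ± 0.05 in INT-, MF- and C-fed mice. For complexes I, III and V the mean of CR-fed mice was likewise the highest of the 4 diets, and their range overlapped that of C-fed mice in every complex. The complex IV mean includes Cox7a1. The median CR difference of the 17 complex IV genes was 0.009 from C, 0.02 from MF and 0.05 from INT, with 9, 13 and 14 genes above 0. MF replicate 4 stood apart: it was the lowest of all 27 mice in the mean of all genes (9.71) and of complexes I (9.59), II (10.60) and III (10.09). Without it 11 subunit genes were called in CR against MF in place of 15, with a median difference of 0.06.

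**Figure D2:**
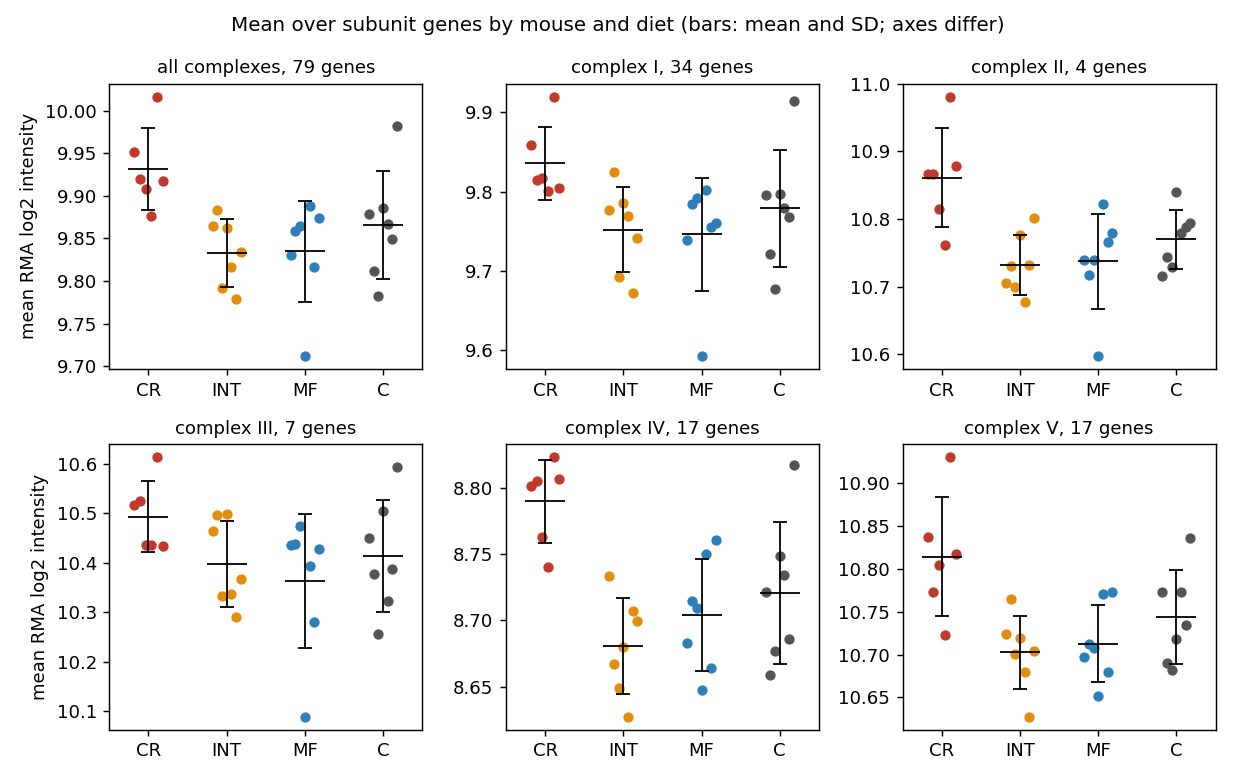
Mean log2 intensity over subunit genes (y axis) of each mouse by diet, for all 79 genes and for each complex. Points are mice, bars are mean and SD over 6 CR-, 7 INT-, 7 MF- and 7 C-fed mice, and axes differ between panels. CR-fed mice average highest in each panel, that of complex IV with Cox7a1 included. MF replicate 4 is the low point at 9.71 in the first panel.

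The arrays fell into a first set (replicates 1 to 4 of each diet, 16 arrays) and a second (replicates 5 to 7, 11 arrays) by the spread of their values, with an interquartile range of 3.63 ± 0.03 and 3.72 ± 0.03. Both sets hold all 4 diets, the first with 4 mice of each, the second with 2 CR-fed mice and 3 of each other diet. The median difference of the subunit genes was 0.05 and 0.06 within the first and second set for CR against C, 0.08 and 0.10 for CR against MF, and 0.04 and 0.15 for CR against INT. For INT against C it was 0.004 and -0.09, for MF against C -0.03 and -0.04, and for INT against MF 0.02 and -0.05. The median CR differences thus kept their direction in both sets, though the second rests on 2 CR-fed mice. Those of INT against C and INT against MF did not.

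Promoter windows were searched for letters of factors known to act on respiratory genes. NRF1 and GABP are activators of many nuclear-encoded respiratory subunits, ERRA is an orphan nuclear receptor partnered by the coactivator PGC-1α, YY1 is a zinc-finger factor whose site is common at the start of housekeeping genes, and SP1 binds GC boxes. Windows from 250 bases before to 50 bases after the RefSeq start (build GRCm38.p6) were at hand for 67 of the subunit genes and searched on both strands. The NRF1 letters GCGCATGCG were found in 8 of 67 subunit genes (11.9%), against 3.58% of the 10747 tested genes with a window and 1.75% of all 32851 windows. They nearly mirror themselves, so that a site can match on both strands with 8 shared bases. The ERRA letters AAGGTCA were found in 8 (11.9%), against 4.24% of tested genes and 4.72% of all windows. The YY1 letters AAGATGGC were found in 10 (14.9%), against 4.68% and 2.75%. The other two were not more frequent than in tested genes: the GABP letters CCGGAAGT stood in 5 (7.46%), against 7.78% and 3.89%, and the SP1 letters GGGGCGGGG in 10 (14.9%), against 23.2% and 11.4%. Of the 18 subunit genes called in any comparison 17 had a window, 6 of them with a match to at least 1 of the 5 sets of letters (Ndufa8, Ndufb8, Sdhd, Atp5b, Atp5l and Atp5pb) and 11 with none. The shares of all windows count windows rather than genes, and take in genes that were not tested. Differences between these shares were not tested. A match describes the letters of a window and nothing about binding.

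Of these windows 5 are printed, chosen after their matches were seen to show Cox7a1 and 4 called genes with matches, and so not as a sample of the called genes. They run 5′ to 3′ on the gene's strand, each 300 bases long, with any match to these letters, or to their reverse complement, in capitals. Cox7a1 is shown as the gene with the largest difference and has no match. Ndufa8 has NRF1 letters on the reverse strand starting 9 bases before the start and an SP1 match, Atp5pb has an SP1 match and YY1 letters across the start, Sdhd has ERRA letters after the start, and Ndufb8 has YY1 letters after it.
Cox7a1, chr7:30183921-30184220, plus strand: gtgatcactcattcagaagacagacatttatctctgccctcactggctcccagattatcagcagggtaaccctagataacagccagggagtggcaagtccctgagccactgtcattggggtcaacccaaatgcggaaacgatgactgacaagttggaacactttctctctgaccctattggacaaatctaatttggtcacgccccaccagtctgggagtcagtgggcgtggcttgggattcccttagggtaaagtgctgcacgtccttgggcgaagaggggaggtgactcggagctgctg
Ndufa8, chr2:36049289-36049588, minus strand: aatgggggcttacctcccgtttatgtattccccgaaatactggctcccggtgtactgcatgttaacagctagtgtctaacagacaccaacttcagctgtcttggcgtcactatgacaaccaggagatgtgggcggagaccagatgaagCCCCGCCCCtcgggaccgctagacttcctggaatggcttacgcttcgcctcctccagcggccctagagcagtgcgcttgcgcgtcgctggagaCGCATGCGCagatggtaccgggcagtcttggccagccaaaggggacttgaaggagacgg
Ndufb8, chr19:44555393-44555692, minus strand: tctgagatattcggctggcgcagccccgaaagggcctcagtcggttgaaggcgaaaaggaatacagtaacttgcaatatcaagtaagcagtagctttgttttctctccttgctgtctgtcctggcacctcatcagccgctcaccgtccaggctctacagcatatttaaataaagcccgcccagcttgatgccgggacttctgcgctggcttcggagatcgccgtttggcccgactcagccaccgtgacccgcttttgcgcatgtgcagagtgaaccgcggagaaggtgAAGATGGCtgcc
Sdhd, chr9:50603800-50604099, minus strand: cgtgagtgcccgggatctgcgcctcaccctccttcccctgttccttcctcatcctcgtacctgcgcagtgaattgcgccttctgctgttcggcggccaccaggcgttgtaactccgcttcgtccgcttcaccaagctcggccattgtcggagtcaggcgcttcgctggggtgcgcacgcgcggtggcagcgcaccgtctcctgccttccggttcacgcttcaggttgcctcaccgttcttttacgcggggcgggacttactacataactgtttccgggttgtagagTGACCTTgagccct
Atp5pb, chr3:105959214-105959513, minus strand: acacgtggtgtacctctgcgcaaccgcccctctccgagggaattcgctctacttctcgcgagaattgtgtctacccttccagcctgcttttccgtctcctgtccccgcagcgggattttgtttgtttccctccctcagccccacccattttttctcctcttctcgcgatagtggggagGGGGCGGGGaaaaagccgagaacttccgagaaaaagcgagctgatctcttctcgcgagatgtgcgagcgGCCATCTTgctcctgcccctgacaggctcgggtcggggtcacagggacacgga

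Cox7a1, the heart and skeletal muscle isoform of complex IV subunit 7a, had by far the largest difference of the 79 subunit genes. Its log2 intensity in the 6 CR-fed mice was 7.56, 7.85, 7.65, 7.96, 7.78 and 8.15. The lowest, median and highest value were 6.42, 6.60 and 6.86 in INT-, 6.32, 6.83 and 6.97 in MF- and 6.12, 6.54 and 7.26 in C-fed mice. No CR-fed mouse overlapped any of the other 21 mice, of which C replicate 7 was the highest. The differences were 1.27 ± 0.14 against C (SE, 2.41-fold, adjusted p = 4.88e-07), 1.08 ± 0.14 against MF (2.11-fold, adjusted p = 5.12e-06) and 1.20 ± 0.14 against INT (2.29-fold, adjusted p = 1.21e-06). Within the first and second array set they were 1.32 and 1.24 against C, 1.00 and 1.22 against MF and 1.08 and 1.40 against INT. The window of its promoter, printed above, held none of the 5 sets of letters.

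The other isoforms of subunit 7a were not called. Cox7a2, the form found in liver and most tissues, averaged 10.08 ± 0.13 in CR-, 10.06 ± 0.14 in INT-, 10.07 ± 0.12 in MF- and 10.09 ± 0.09 in C-fed mice, and differed by -0.01 ± 0.07 between CR and C (adjusted p = 0.969). Cox7a2l, a relative of these isoforms, averaged 8.10 ± 0.20, 8.18 ± 0.23, 8.09 ± 0.14 and 8.21 ± 0.10 on CR, INT, MF and C. The other muscle isoforms of complex IV, Cox6a2 and Cox8b, lay between 5.16 and 5.69 and between 4.21 and 4.80 over all mice. Neither was called, with CR minus C differences of -0.0039 ± 0.07 and 0.04 ± 0.07. Of 8 markers of striated muscle none was called in any of the 3 CR comparisons, Myh1, Myh4 and Myl1 did not pass an intensity of 20 on any array, and the summed intensity was 152 to 205 in CR-, 157 to 187 in INT-, 154 to 190 in MF- and 159 to 182 in C-fed mice. Of 6 brown adipocyte markers Ucp1 and Dio2 did not pass 20 on any array, Ppargc1a was higher in CR- than in C-fed mice (1.63 ± 0.16), and Elovl3 and Cidea were lower (-3.46 ± 0.36 and -2.04 ± 0.67). Their summed intensity was 1180 to 1548 in CR-, 1548 to 3073 in INT-, 987 to 3510 in MF- and 1602 to 2621 in C-fed mice.

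**Figure D3:**
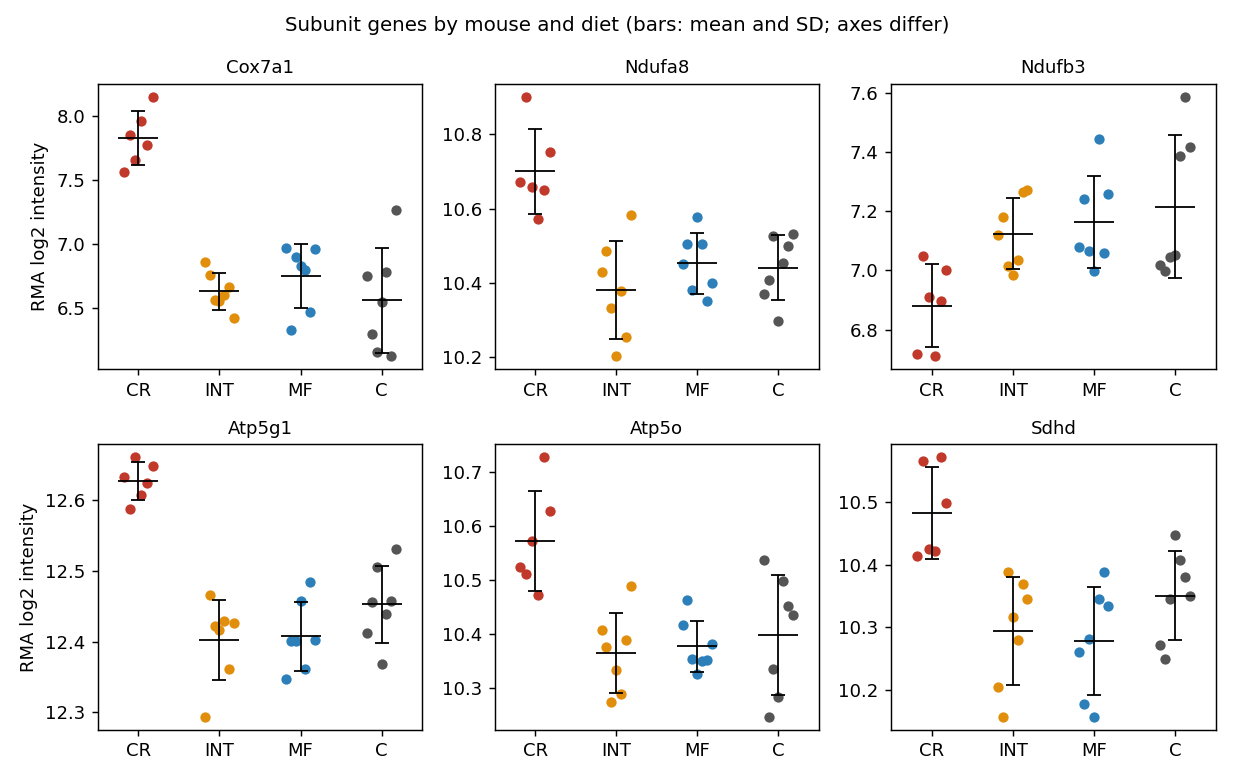
Log2 intensity (y axis) of 6 subunit genes by mouse and diet. Points are mice, bars are mean and SD over 6 CR-, 7 INT-, 7 MF- and 7 C-fed mice, and axes differ between panels. The Cox7a1 values of CR-fed mice, from 7.56 upwards, lie above all others, Ndufb3 is lower in CR-fed mice, and for the other 4 genes the CR mean lies 0.13 to 0.32 above that of each other diet.

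Of the remaining isoforms of complex IV, Cox4i1, the common form of subunit 4, averaged 10.36 ± 0.08 in CR-, 10.20 ± 0.04 in INT-, 10.22 ± 0.11 in MF- and 10.25 ± 0.08 in C-fed mice. It was higher in CR- than in INT-fed mice (0.16 ± 0.05, adjusted p = 0.0412), a call that was lost in 10 of 27 fits that left out 1 mouse, and differed by 0.14 ± 0.05 from MF (adjusted p = 0.0554) and 0.11 ± 0.05 from C (adjusted p = 0.183). Cox4i2, the form known from lung, lay between 4.26 and 5.10 and was not called. Cox5a and Cox5b, which join the core of complex IV, differed by 0.06 ± 0.06 and -0.12 ± 0.06 between CR and C (adjusted p = 0.569 and 0.176). Cox6a1, Cox6b1, Cox6c, Cox7b, Cox8a and Ndufa4 are the forms used in most tissues, and their CR minus C differences lay between -0.03 and 0.07. Cox6b2, a testis form, averaged 4.54 ± 0.19, 4.49 ± 0.16, 4.48 ± 0.10 and 4.68 ± 0.14 on CR, INT, MF and C, and Ndufa4l2, known to be induced by hypoxia, 4.89 ± 0.22, 4.81 ± 0.20, 5.01 ± 0.19 and 4.92 ± 0.18. Complex IV thus had 1, 1 and 2 of 17 tested genes called against C, MF and INT, all higher. These shares of 5.88%, 5.88% and 11.8% stand beside 8.46%, 8.57% and 6.62% of all genes called higher. Of all genes 9.05%, 11.2% and 8.37% were called lower.

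In complex I, 2, 8 and 5 of 34 genes were higher in CR- than in C-, MF- and INT-fed mice, and 1, 1 and 0 lower. The shares higher were 5.88%, 23.5% and 14.7%, against 8.46%, 8.57% and 6.62% of all genes. The shares lower were 2.94%, 2.94% and 0%, against 9.05%, 11.2% and 8.37%. Ndufa8, an accessory subunit on the side of the intermembrane space, had the largest rise of the called genes of this complex. It was at 10.67, 10.90, 10.66, 10.57, 10.65 and 10.75 in the 6 CR-fed mice, and its lowest, median and highest values were 10.20, 10.38 and 10.58 in INT-, 10.35, 10.45 and 10.58 in MF- and 10.30, 10.45 and 10.53 in C-fed mice. CR-fed mice did not overlap C-fed mice and overlapped 1 INT- and 1 MF-fed mouse by their lowest value. The differences were 0.26 ± 0.06 from C (1.20-fold, adjusted p = 0.00399), 0.25 ± 0.06 from MF (adjusted p = 0.00513) and 0.32 ± 0.06 from INT (1.25-fold, adjusted p = 0.000622).

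Among the core subunits of complex I, Ndufv1, which carries the flavin that takes electrons from NADH, was higher in CR-fed mice by 0.15 ± 0.05 against C (adjusted p = 0.0270) and 0.14 ± 0.05 against MF (adjusted p = 0.0301), and differed by 0.11 ± 0.05 from INT (adjusted p = 0.110). It ranged from 10.31 to 10.41 on CR, 10.17 to 10.32 on INT, 10.09 to 10.35 on MF and 10.10 to 10.34 on C, so that CR-fed mice overlapped the highest mice of each other diet. The call against C was lost without C replicate 1, C replicate 4 or CR replicate 5 (largest adjusted p = 0.0593) and that against MF without CR replicate 2 or 5 or MF replicate 2 or 3 (largest adjusted p = 0.0708). Ndufs1, the core iron-sulphur subunit next to it, differed by 0.06 ± 0.05 from C, 0.12 ± 0.05 from MF and 0.08 ± 0.05 from INT and was not called.

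Ndufb3, an accessory subunit of the membrane arm, went the other way and was the only subunit gene called lower. Its values in the 6 CR-fed mice were 6.72, 7.05, 6.91, 6.71, 6.90 and 7.00, and the lowest, median and highest were 6.98, 7.12 and 7.27 in INT-, 7.00, 7.08 and 7.44 in MF- and 7.00, 7.05 and 7.59 in C-fed mice. The upper CR-fed mice overlapped the lower mice of each other diet. It differed by -0.33 ± 0.09 from C (adjusted p = 0.0130), -0.28 ± 0.09 from MF (adjusted p = 0.0327) and -0.24 ± 0.09 from INT (adjusted p = 0.0808). The call against MF was lost without CR replicate 1 or 4 or MF replicate 2, 5 or 7 (largest adjusted p = 0.0858). Within the first and second array set the difference from C was -0.18 (adjusted p = 0.198) and -0.52 (adjusted p = 0.0537), and that from MF -0.25 and -0.31. C replicates 1 to 4 lay between 7.00 and 7.05 and C replicates 5 to 7 between 7.39 and 7.59. Tukey's test called Ndufb3 in neither comparison.

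The other calls of complex I were rises of accessory subunits against MF or INT. Ndufb6 averaged 10.26 ± 0.06 in CR-, 10.04 ± 0.18 in INT-, 10.01 ± 0.14 in MF- and 10.08 ± 0.11 in C-fed mice, with differences of 0.25 ± 0.07 from MF (adjusted p = 0.0147), 0.22 ± 0.07 from INT (adjusted p = 0.0402, lost in 9 of 27 fits that left out 1 mouse, with 0.12 and 0.36 within the array sets) and 0.18 ± 0.07 from C (adjusted p = 0.0884). Ndufab1, the mitochondrial acyl carrier protein, averaged 9.11 ± 0.07, 8.86 ± 0.13, 8.94 ± 0.07 and 8.96 ± 0.08 on CR, INT, MF and C, and was called against INT (0.24 ± 0.06, adjusted p = 0.00320) and against MF (0.17 ± 0.06, adjusted p = 0.0298, lost in 7 of 27 such fits). The call of Ndufab1 against MF was also lost when its 2 probe sets were averaged. Ndufb8, whose window carries the YY1 letters printed above, averaged 9.32 ± 0.07, 9.15 ± 0.05, 9.12 ± 0.03 and 9.26 ± 0.13. It was higher by 0.20 ± 0.05 against MF (adjusted p = 0.00589) and 0.17 ± 0.05 against INT (adjusted p = 0.0236, and 0.0513 without CR replicate 1), while its difference from C was 0.07 ± 0.05 (adjusted p = 0.435). CR replicate 4, at 9.19, lay below the other CR-fed mice but above every MF-fed mouse, the highest of which was at 9.16. Ndufc2 was higher by 0.14 ± 0.04 against MF (adjusted p = 0.0249), a call lost without CR replicate 1 or 5 or MF replicate 4 (largest adjusted p = 0.0604). Ndufa12 and Ndufv3 completed the calls: Ndufa12 was 0.21 ± 0.07 above both MF and INT (adjusted p = 0.0409 and 0.0487, lost in 7 and 22 of 27 such fits) and Ndufv3 was 0.21 ± 0.07 above MF (adjusted p = 0.0418, lost in 9 of 27). Within the first and second array set Ndufa12 was 0.27 and 0.10 above MF and 0.24 and 0.16 above INT, and Ndufv3 was 0.10 and 0.39 above MF.

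Complex II showed a rise of Sdhd, the small membrane anchor that binds heme and ubiquinone. Its values in the 6 CR-fed mice were 10.41, 10.57, 10.43, 10.42, 10.57 and 10.50, against a lowest, median and highest of 10.16, 10.32 and 10.39 in INT-, 10.16, 10.28 and 10.39 in MF- and 10.25, 10.35 and 10.45 in C-fed mice. CR-fed mice did not overlap INT- or MF-fed mice and overlapped C-fed mice. The differences were 0.21 ± 0.05 from MF (adjusted p = 0.00520), 0.19 ± 0.05 from INT (adjusted p = 0.0124) and 0.13 ± 0.05 from C (adjusted p = 0.0777). Sdha, the flavoprotein that oxidises succinate, and Sdhb, the iron-sulphur subunit, were not called, with CR minus C differences of 0.06 ± 0.06 and 0.09 ± 0.09. CR replicate 4 was lowest of its diet for Sdha (11.28), and MF replicate 4 was lowest of all mice for Sdhb (9.92).

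In complex III, Uqcrfs1, the Rieske iron-sulphur protein, averaged 8.22 ± 0.16 in CR-, 8.06 ± 0.08 in INT-, 8.03 ± 0.08 in MF- and 8.06 ± 0.08 in C-fed mice. It was called against MF (0.19 ± 0.06, adjusted p = 0.0267), a call lost in 7 of 27 fits that left out 1 mouse, and differed by 0.16 ± 0.06 from both C and INT (adjusted p = 0.0778 and 0.0760). CR replicate 4 was at 7.92, below every other mouse, and the other 5 CR-fed mice ranged from 8.20 to 8.32. Uqcrc1, a core subunit of the matrix side, differed by 0.04 ± 0.05 from C and was not called, nor were Uqcrb and Uqcrh (0.11 ± 0.10 and 0.07 ± 0.08 from C). Cyc1, the cytochrome c1 of complex III, which lies outside the symbol rule, exceeded MF by 0.14 ± 0.04 on CR (adjusted p = 0.0315).

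In complex V, 4, 3 and 5 of 17 genes were higher in CR- than in C-, MF- and INT-fed mice and none lower. The shares higher were 23.5%, 17.6% and 29.4%, against 8.46%, 8.57% and 6.62% of all genes. Of all genes 9.05%, 11.2% and 8.37% were called lower. Atp5g1, 1 of 3 genes for the membrane ring subunit c, showed the clearest shift. It was at 12.63, 12.59, 12.66, 12.61, 12.62 and 12.65 in the 6 CR-fed mice, and its lowest, median and highest values were 12.29, 12.42 and 12.47 in INT-, 12.35, 12.40 and 12.48 in MF- and 12.37, 12.46 and 12.53 in C-fed mice. CR-fed mice overlapped no other mouse. The differences were 0.17 ± 0.04 from C (1.13-fold, adjusted p = 0.00304), 0.22 ± 0.04 from MF (1.16-fold, adjusted p = 0.000275) and 0.22 ± 0.04 from INT (1.17-fold, adjusted p = 0.000266). Atp5g2 and Atp5g3 encode the same mature protein behind other import sequences, and neither was called. Atp5g2 differed by 0.03 ± 0.04 from C, 0.05 ± 0.04 from MF and 0.06 ± 0.04 from INT. Atp5g3 averaged 11.31 in both CR- and C-fed mice and differed by 0.06 ± 0.06 from MF and 0.10 ± 0.06 from INT.

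Of the subunits of the peripheral stalk, which holds the catalytic head of complex V, Atp5o and Atp5pb were called higher and Atp5h and Atp5j were not called. Atp5o, which ties the stalk to the head, was at 10.52, 10.51, 10.57, 10.47, 10.73 and 10.63 in CR-fed mice and had a lowest, median and highest of 10.27, 10.38 and 10.49 in INT-, 10.33, 10.35 and 10.46 in MF- and 10.25, 10.44 and 10.54 in C-fed mice. It was higher by 0.17 ± 0.05 against C (adjusted p = 0.0235), 0.20 ± 0.05 against MF (adjusted p = 0.0101, 0.13 and 0.32 within the array sets) and 0.21 ± 0.05 against INT (adjusted p = 0.00818). CR- and MF-fed mice did not overlap, and the call against C was lost without C replicate 2 or 4 or CR replicate 5 or 6 (largest adjusted p = 0.0658). Atp5pb, subunit b of the same stalk, averaged 10.62 ± 0.08 in CR-, 10.44 ± 0.07 in INT-, 10.43 ± 0.08 in MF- and 10.45 ± 0.09 in C-fed mice, with differences of 0.16 ± 0.05, 0.18 ± 0.05 and 0.17 ± 0.05 from C, MF and INT (adjusted p = 0.0265, 0.0134 and 0.0241). Its call against C was lost without C replicate 3, 4 or 6 or CR replicate 5 (largest adjusted p = 0.0705) and that against INT without CR replicate 5 or INT replicate 6 (largest adjusted p = 0.0649). The call of Atp5pb against C was also lost when its 2 probe sets were averaged. Atp5h differed by 0.08 ± 0.07, 0.11 ± 0.07 and 0.14 ± 0.07 from C, MF and INT, and Atp5j by -0.06 ± 0.04, -0.01 ± 0.04 and -0.05 ± 0.04.

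Atp5b, the catalytic beta subunit of the head, was at 12.56, 12.59, 12.58, 12.62, 12.65 and 12.60 in CR-fed mice, and reached at most 12.52 in INT-, 12.56 in MF- and 12.52 in C-fed mice. It was higher against C (0.13 ± 0.04, adjusted p = 0.0261) and INT (0.13 ± 0.04, adjusted p = 0.0197), with 0.10 ± 0.04 against MF (adjusted p = 0.0730). The call against C was lost without C replicate 3 or 4 or CR replicate 4 or 5 (largest adjusted p = 0.0554). Its partner in the head, Atp5a1, was not called and differed by 0.04 ± 0.05, 0.08 ± 0.05 and 0.09 ± 0.05 from C, MF and INT. Atp5l, a small membrane subunit, was 0.20 ± 0.07 above INT (adjusted p = 0.0464), a call lost in 16 of 27 fits that left out 1 mouse, with 0.10 and 0.38 within the array sets. Atp5d of the central stalk had the smallest SD within diets of all subunit genes, with 12.88 ± 0.02 in CR-, 12.86 ± 0.02 in INT-, 12.86 ± 0.05 in MF- and 12.88 ± 0.02 in C-fed mice.

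**Figure D4:**
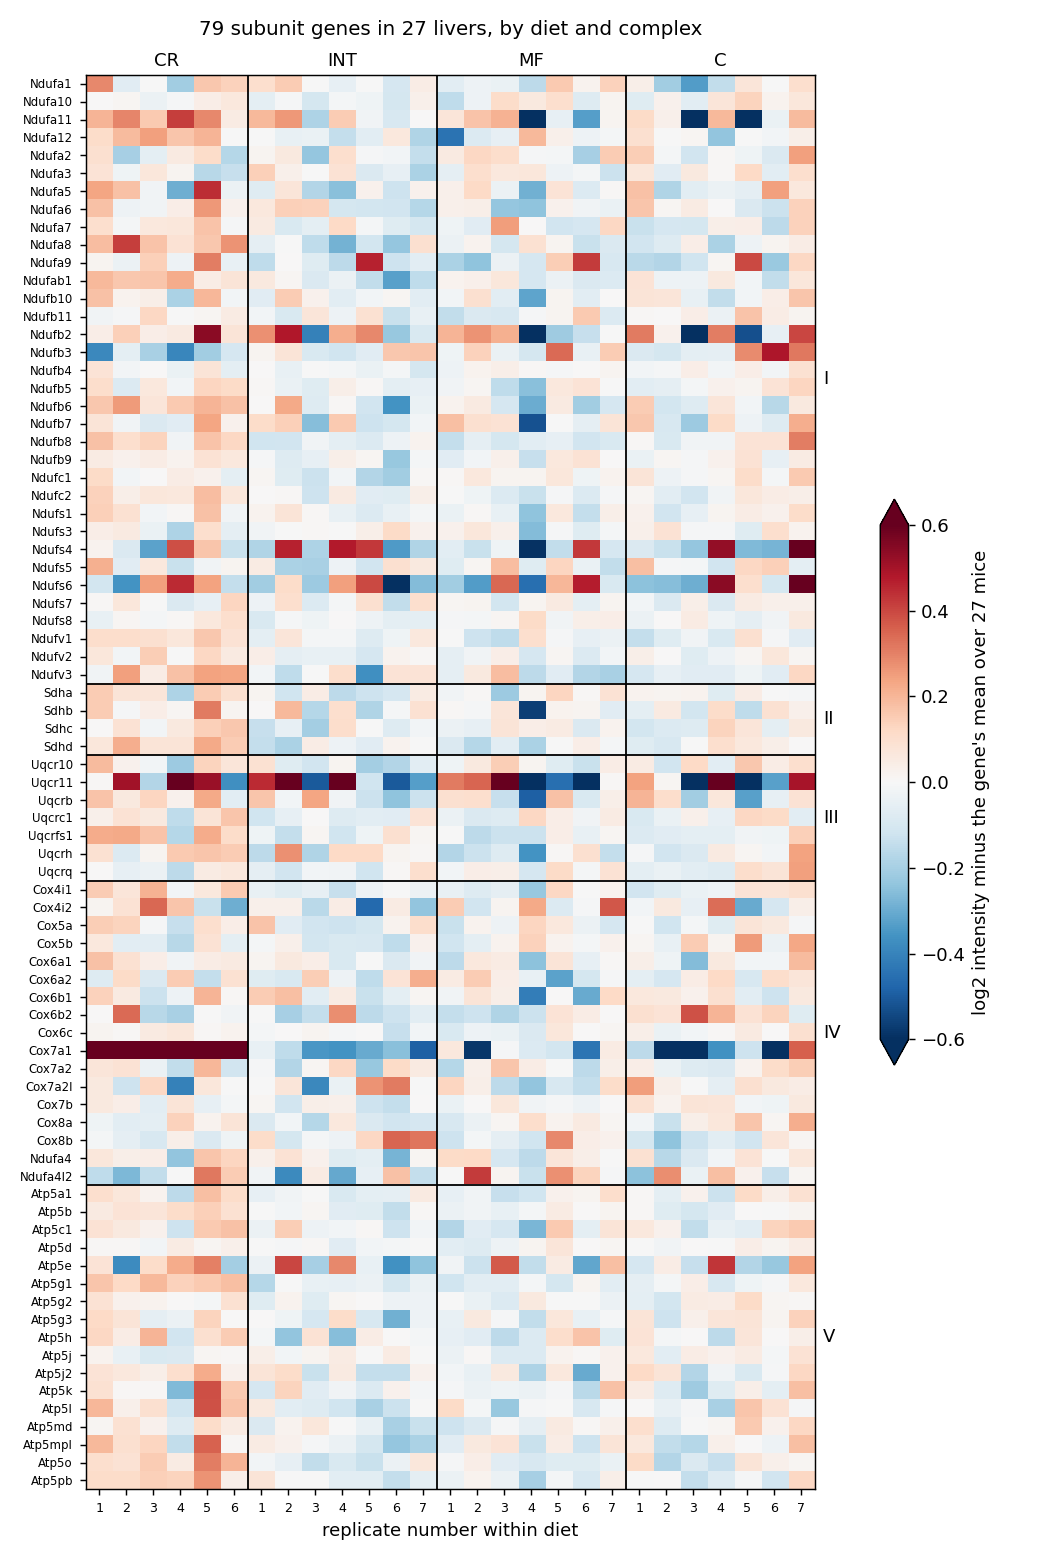
Log2 intensity of each of 79 subunit genes (rows, by complex) in each of 27 mice (columns, by diet and replicate), as the difference from the gene's mean over all mice, with colours that saturate at 0.6 on either side. The Cox7a1 row is dark red in all CR-fed mice. Ndufs4, Ndufs6 and Uqcr11 vary widely within each diet, and Ndufa11 and Ndufb2 most widely within MF and C.

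A few genes varied widely between mice of the same diet, and they are named here because of that spread. Uqcr11, a small subunit of complex III, had an SD within diets of 0.579, Ndufb2 of 0.418, Ndufs6 of 0.351, Ndufs4 of 0.327 and Ndufa11 of 0.295, whereas Atp5d had 0.033 and Ndufb4 0.042. On CR, INT, MF and C the SD of Ndufa11 was 0.127, 0.163, 0.381 and 0.402. That of Ndufb2 was 0.196, 0.321, 0.586 and 0.462. The lowest mouse was MF replicate 4 for Uqcr11 (9.44), Ndufb2 (6.08), Ndufs4 (10.51) and Ndufa11 (9.42). C replicates 3 and 5 were also low for Uqcr11 (9.95 and 10.09), Ndufb2 (6.68 and 6.97) and Ndufa11 (9.58 and 9.59), whereas for Ndufs6 the lowest was INT replicate 6 (8.35). Ndufa11 and Uqcr11 each have a second probe set, which followed the first over the 27 mice with a correlation of 0.969 and 0.989. Ndufa11, an accessory subunit of complex I, ranged from 10.35 to 10.71 on CR, 10.11 to 10.56 on INT, 9.42 to 10.50 on MF and 9.58 to 10.49 on C. Its differences of 0.37 ± 0.16 from C and 0.35 ± 0.16 from MF were larger than those of the called genes of its complex, but were not called (adjusted p = 0.111 and 0.125). Uqcr11 differed by 0.24 ± 0.30 from C and 0.36 ± 0.30 from MF, well within its spread.

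Lists of genes that regulate, assemble, feed or make the subunits are given beside the shares of all genes, which were 8.46%, 8.57% and 6.62% higher and 9.05%, 11.2% and 8.37% lower in CR against C, MF and INT. Differences between the lists were not tested. Ppargc1a, the gene of PGC-1α, a coactivator that drives mitochondrial gene expression, averaged 9.98 ± 0.13 in CR-, 8.19 ± 0.11 in INT-, 7.93 ± 0.53 in MF- and 8.35 ± 0.28 in C-fed mice, a difference of 1.63 ± 0.16 from C. Of 20 tested regulators of mitochondrial biogenesis 2, 2 and 1 were higher and 4, 4 and 3 lower in CR- against C-, MF- and INT-fed mice, and Ppara, a nuclear receptor for fatty acids, was among the lower ones (-0.35 ± 0.08 from C). Factors that assemble complexes II to V were more often called lower than higher: of 31 tested, 1, 2 and 0 were higher and 5, 8 and 6 lower. Cox19, which helps bring copper to complex IV, averaged 7.32 ± 0.13 in CR-, 8.06 ± 0.15 in INT-, 8.19 ± 0.21 in MF- and 8.14 ± 0.21 in C-fed mice (-0.82 ± 0.10 from C). Sdhaf1, an assembly factor of complex II, was lower by 0.41 ± 0.07 relative to C in CR-fed mice, and Coa6, another copper handling factor of complex IV, by 0.55 ± 0.10. Of 14 assembly factors of complex I 1, 2 and 2 were higher and 0, 1 and 2 lower, with Ndufaf6 0.41 ± 0.10 above C.

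Enzymes of the tricarboxylic acid cycle and pyruvate entry, which feed the chain with NADH and succinate, had 5, 5 and 4 of 16 genes higher and 1, 1 and 2 lower in CR- against C-, MF- and INT-fed mice. Dlat of the pyruvate dehydrogenase complex rose by 0.74 ± 0.11 and Idh2, the mitochondrial isocitrate dehydrogenase, by 0.58 ± 0.10 against C. Pcx, pyruvate carboxylase, fell by 0.23 ± 0.07 in CR- against C-fed mice. Proteins of the mitochondrial ribosome, which makes the subunits encoded in mitochondrial DNA, had 1, 2 and 2 of 74 genes higher and 6, 5 and 5 lower, with medians of -0.06, -0.05 and -0.03, and its lower calls were below the share of all genes in each comparison. The cytosolic ribosome, which makes the subunits described here, had 17, 28 and 9 of 66 genes higher and none lower, with medians of 0.11, 0.15 and 0.10. Proteasome subunits had none of 39 higher and 1, 1 and 2 lower, Psmb9 of the immunoproteasome among them. Of 8 nucleotide and phosphate carriers, uncoupling proteins and porins, Slc25a27 was higher against MF and INT (0.47 ± 0.11 and 0.34 ± 0.11). Of 6 genes listed beside the subunits, Cyc1 was higher against MF and Micos10 lower against C (-0.22 ± 0.07). Subunits encoded in mitochondrial DNA were not analysed here.

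**Figure D5:**
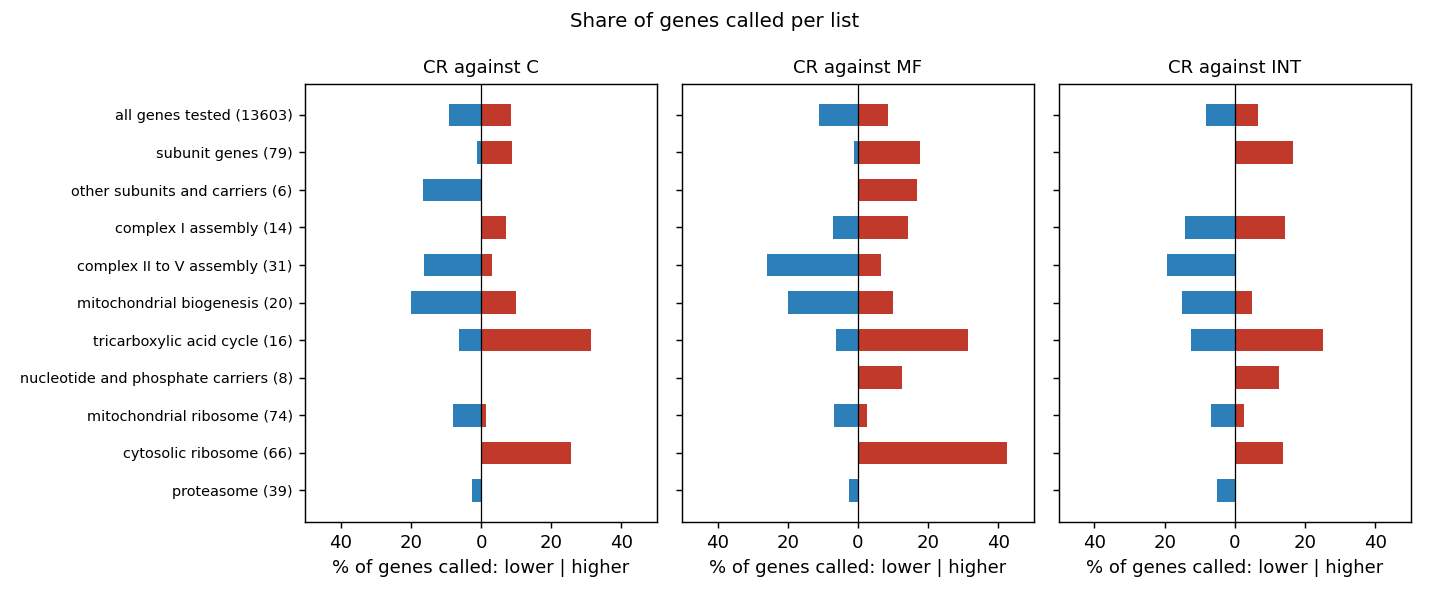
Share of genes called higher (red, to the right) and lower (blue, to the left) at an adjusted p under 0.05 in CR against C, MF and INT, in percent (x axis), for all genes tested, the subunit genes and 9 related lists (y axis, with the number tested). Subunit genes were called higher at 8.86%, 17.7% and 16.5%, with 1, 1 and 0 called lower. Of 31 assembly factors of complexes II to V, 5, 8 and 6 were called lower and 1, 2 and 0 higher.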

How the data were processed

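Liver RNA (100 ng per mouse) was hybridised by the authors to mouse gene arrays (1 colour), and the deposited values are log2 intensities after RMA, which corrects background, sets all arrays to 1 distribution and summarises probes. The 35556 probe sets were named through the platform annotation: 21218 name 1 gene, 1881 several and 12457 none. Only probe sets with 1 gene were used, and for a gene with several the one of highest mean was kept. Of the 81 subunit genes 23 had other probe sets (32 in all), which correlated with the kept one over mice at -0.126 to 0.993 (median 0.914). Cox7c, Ndufa13 and Uqcrc2 lay only on probe sets that name several genes and were left out.

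Each gene was fitted in limma 3.58.1 (R 4.3.3) with 1 mean per diet over all 27 arrays, each a separate mouse, with moderated variances and Benjamini-Hochberg adjustment over 13603 genes. The fit was tested on simulated data. SE are limma's moderated errors, and SD are over mice. One-way analysis of variance with Tukey's test, which the study's general statistics name without giving a test for the arrays, was run as an alternative, with Benjamini-Hochberg adjustment added here, beside other filters, scalings, blocks and subsets of mice. Named genes were those with the smallest p per comparison (up to 12 called, or 4 where none was called), core subunits, isoform families, the highest and lowest probe set mean of each complex, and up to 2 called genes of each related list and comparison. Names outside this rule (Ndufa12, Ndufv3, Ndufa11, Uqcr11, Ndufb2, Ndufs4, Ndufs6, Ndufb4, Atp5h, Atp5j, Coa6, Cidea) were chosen after their values were seen. The subunit genes, lists, motifs and tests were chosen with earlier results of these data known. The number of arrays limits the precision. Promoters are RefSeq windows of GRCm38.p6, and 67 of 81 genes had a window that was used.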

Additional observations from a re-analysis of the deposited data

Results flagged for a closer look

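Of 212 groups of 6 or 7 mice examined, 15 held a mouse set far apart from the rest by the gap to its nearest neighbour over the range of the group, and chance gives about 1 in 20 such groups. MF replicate 4 was far below the other MF-fed mice in the mean of all subunit genes (9.71), in the mean of complex I (9.59) and for Sdhb (9.92). CR replicate 4 was far below the other CR-fed mice for Ndufa4 (9.81), Ndufb8 (9.19), Sdha (11.28) and Uqcrfs1 (7.92). Among single genes, INT replicate 4 was low for Atp5d (12.80), INT replicate 6 was low for Cox6c (12.71) and MF replicate 3 was low for Sdha (11.25). High values stood apart for Cox6b2 in CR replicate 2 (4.89) and INT replicate 4 (4.83), for Cox8b in MF replicate 5 (4.74), for Cox7b in MF replicate 3 (12.45) and for Uqcrfs1 in C replicate 7 (8.23).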

How the results depend on the processing

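In CR against C 8 subunit genes were called, against 5 when only CR- and C-fed mice entered the fit (4 of them among the 8), 5 by Tukey's test (all among the 8), 2 within replicates 1 to 4 and 1 within replicates 5 to 7, sets with fewer mice. In CR against MF there were 15, against 5 and 1 within these sets. In CR against INT there were 13, against 3 and 1 within them, 8 with median centring of the arrays and 7 by Tukey's test. Calls that Tukey's test did not give were Atp5o, Atp5pb and Ndufb3 against C, Ndufab1, Ndufb3, Ndufb6, Uqcrfs1, Ndufa12 and Ndufv3 against MF, and Atp5l, Atp5pb, Cox4i1, Ndufb6, Ndufb8 and Ndufa12 against INT. Leaving out single mice gave 4 to 10 calls for CR against C (4 without C replicate 4 and 5 without CR replicate 5), 10 to 15 for CR against MF and 9 to 14 for CR against INT. The median difference of the subunit genes moved by more than its spread between mice (0.041) for INT against C (0.0038 within replicates 1 to 4 and -0.090 within replicates 5 to 7), for INT against MF (-0.054 within replicates 5 to 7) and for CR against INT (0.038 and 0.15). The cause of these shifts was not tested. The 0 calls between INT, MF and C stayed at 0 in every alternative run. Cox7a1 was called against C, MF and INT in all alternatives run. Directions were compared only for the named genes called in at least 1 fit of a comparison, and none of these changed direction there. Over these, 1152 leave-one-out values stayed on the same side of the threshold, 79 lost a call and 11 gained it, and in the other alternatives 560 stayed, 91 lost it and 39 gained it. Replicate numbers are shared between diets but do not pair the mice: deviations of same-numbered mice correlated at 0.07 on average (-0.249 to 0.304 over 39 pairs), against -0.01 for other numbers, and with the replicate block 10, 14 and 13 subunit genes were called in CR against C, MF and INT. With a block for the array set 11, 17 and 15 were called, and with cyclic loess scaling 11, 19 and 14. Both kept all calls of the main fit. Differences of most subunit genes were of the size of their SE, so that smaller shifts could not be called with 6 or 7 mice.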
